A study of Rattus norvegicus with 9 samples.

Results

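The genes described here belong to the families of membrane carriers for amino acids, sugars and monocarboxylates. They were found as the probe sets that carry a single gene symbol of the solute carrier (SLC) families 1, 2, 3, 5, 6, 7, 16, 36, 38 or 43, which gave 107 of the 31042 probe sets on the array and 79 of its 14217 named genes. Slc7a6os also meets that naming rule, although its symbol marks a gene on the strand opposite Slc7a6 and not a carrier. Expression had been measured in tissue of Sprague-Dawley rat embryos at embryonic day 13, on 3 arrays for each of 3 tissues. The ureteric bud (UB), the epithelial outgrowth that branches into the collecting system, was freed from the kidney with a light trypsin digestion. The Wolffian duct (WD), the tube from which the bud grows, was dissected without such treatment. The WD was also dissected along with the mesodermal cells around it, here called WD with mesoderm. About 100 pieces of UB or of WD, or about 50 of WD with mesoderm, were pooled for an array, and the labels name the arrays of a tissue as biological replicates. The labels name no genetic change and no drug for any tissue, and digestion and tissue cannot be told apart in the UB.

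Carriers of these families set which fuels and building blocks a cell can take up or release. Facilitative hexose carriers of the SLC2 family let glucose run down its gradient. Some SLC16 carriers, Slc16a1 and Slc16a3 among them, move lactate and pyruvate together with protons. These need a partner glycoprotein, basigin or embigin, to reach the surface. Amino acids enter through sodium-coupled carriers (SLC1, SLC6, SLC38), through cationic carriers, and through exchangers built from a heavy chain of the SLC3 family and a light chain of the SLC7 family. In the adult nephron several of them recover filtered sugar and amino acids.

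Signals are given in linear intensity units as deposited. A gene was tested if at least 3 arrays lay above the 40th percentile of their array, and each gene was read from its brightest probe set that passed. Of the 79 genes 45 passed and 34 did not, so counts below are over the 45 and not over all members. Differences are log2 of intensity plus 46, with standard error (SE), the first-named tissue minus the second, and a gene was called when limma's p-value, adjusted over all 20330 probe sets tested, was under 0.05. The comparisons share arrays, so they are not independent.

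Some properties of the arrays moved with the tissues. Among the transcripts spiked in as controls, bioC exceeded bioB by a ratio of 2.87 to 2.99 on every UB array and 2.93 on replicate 3 of WD with mesoderm, against 1.02 to 1.23 on the other 5 arrays. The ratio of the 3' to the 5' signal of beta-actin was 2.19 to 4.87 in the WD, 1.48 to 2.30 in the UB and 1.47 to 1.92 in WD with mesoderm. Marker genes followed the labels in part. All 6 bud tip markers tested were called higher in UB against WD. Mesenchyme markers, 11 of 12 listed, summed to 8535 to 12121 units in the UB, 99433 to 133854 in the WD and 214693 to 257258 in WD with mesoderm, so signal of these markers was also present in the dissected WD. Duct epithelial markers, 11 of 12 listed, summed to 239132 to 262679 units in the WD and 75245 to 115260 in WD with mesoderm, and the UB lay between at 191323 to 201286. These 11 were split for UB minus WD, with 1 called higher and 5 lower, where 13.3% and 19.6% of all genes tested were. Epcam averaged 52667 units in the UB and 54746 in the WD, Lhx1 12860 and 4190, and Krt19 524 and 14649. None of these markers was at 0. In tissue pieces, fewer cells of a type and less RNA per cell cannot be told apart.

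For UB minus WD 7 of the 45 genes were called higher and 9 lower, which is 15.6% and 20.0% of them, where 13.3% and 19.6% of all 10809 genes tested were called. For WD with mesoderm minus WD 1 was higher and 6 lower (2.22% and 13.3%), against 6.49% and 8.23% of all genes. For UB minus WD with mesoderm 8 were higher and 5 lower (17.8% and 11.1%), against 13.6% and 16.6%. In either direction 35.6%, 15.6% and 28.9% of the carriers were called, against 33.0%, 14.7% and 30.3% of all genes, so the shares of the carriers lay near those of all genes. The arrays of the UB lay all above those of the WD for 10 carriers and all below for 14, where 22.1% and 29.7% of all genes did so. Those of WD with mesoderm lay above the WD for 4 and below for 15, against 15.2% and 17.2%, and those of the UB above WD with mesoderm for 13 and below for 9, against 24.2% and 25.7%. Over the 59 probe sets tested instead of the 45 genes, 8 were higher and 12 lower for UB minus WD (11.3% and 18.6% of all probe sets), 1 and 7 for WD with mesoderm minus WD (5.62% and 7.06%), and 9 and 7 for UB minus WD with mesoderm (11.0% and 14.5%). The median difference of the 45 was -0.44 for UB minus WD (all genes tested -0.075), -0.31 for WD with mesoderm minus WD (all genes -0.014) and 0.14 for UB minus WD with mesoderm (all genes -0.013). The median size of a difference, sign aside, was 0.57, 0.51 and 0.57 for the 45 genes and 0.40, 0.28 and 0.36 for all genes, while the carriers were also dimmer (median of the mean signal 1586 against 3316 units) and had a larger median SE (0.23 against 0.20). The split of calls depends on the scaling. Quantile normalization gave 10 higher and 5 lower in UB against WD, and median centring 13 and 1; for WD with mesoderm against WD these gave 1 and 8, and 0 and 4, and for UB against WD with mesoderm 9 and 3, and 16 and 3. Over all probe sets tested the median of UB minus WD was -0.12 as deposited, 0.036 after quantile normalization and 0.34 after median centring, and no transporter called in any comparison changed its sign under either. Median centring ended 8 of the 9 falls against the WD, all but that of Slc38a4, and none of the 7 rises.

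**Figure D1:**
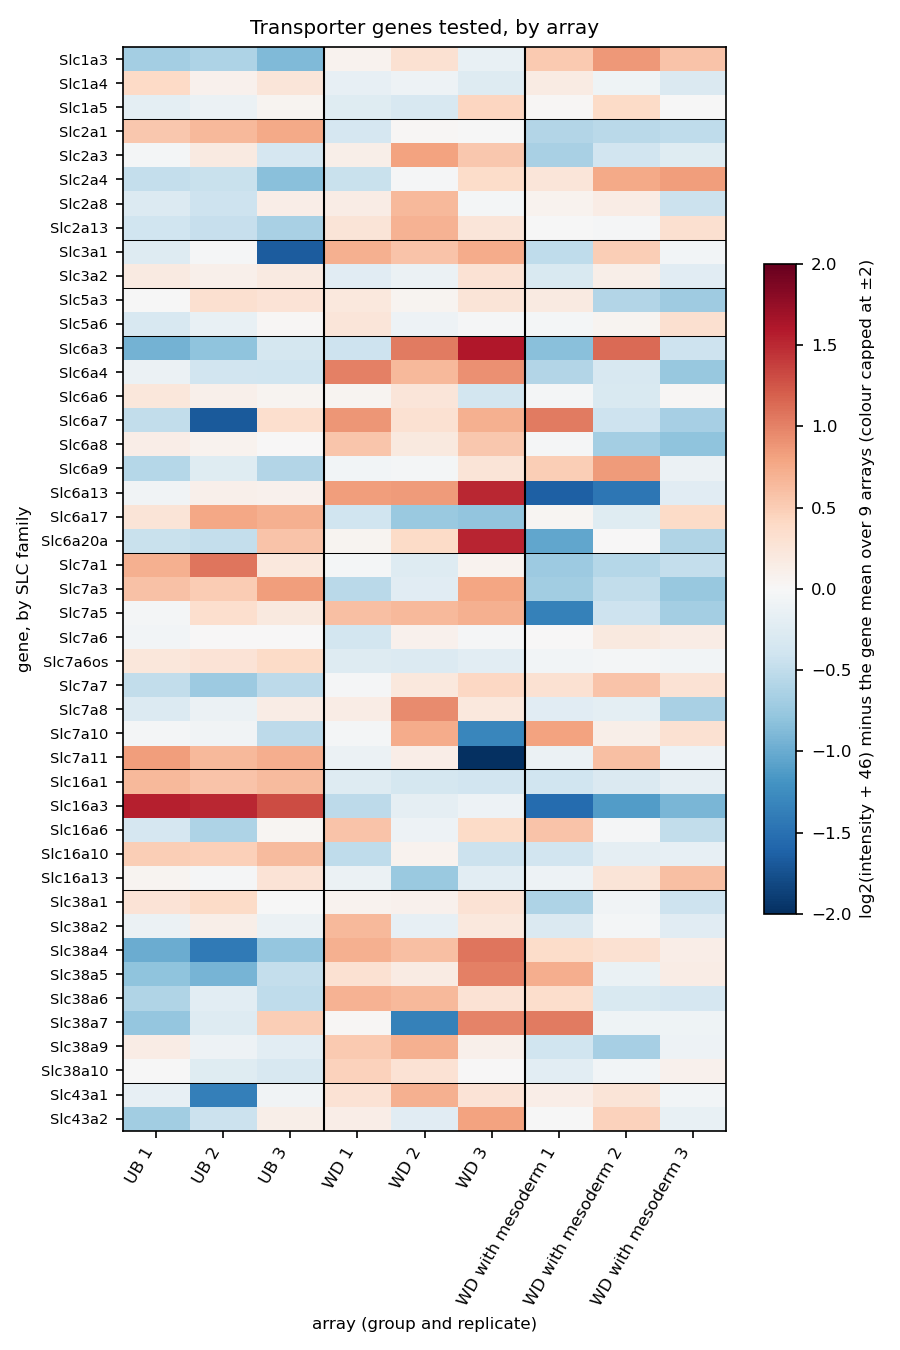
Each row is 1 of the 45 transporter genes tested and each column 1 of the 9 arrays; colour is log2(intensity + 46) minus the gene's mean over the arrays, red above and blue below, capped at 2 in either direction. Slc16a3 is the deepest red row across the UB arrays, and Slc38a4 is blue on all 3 of them.

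**Figure D2:**
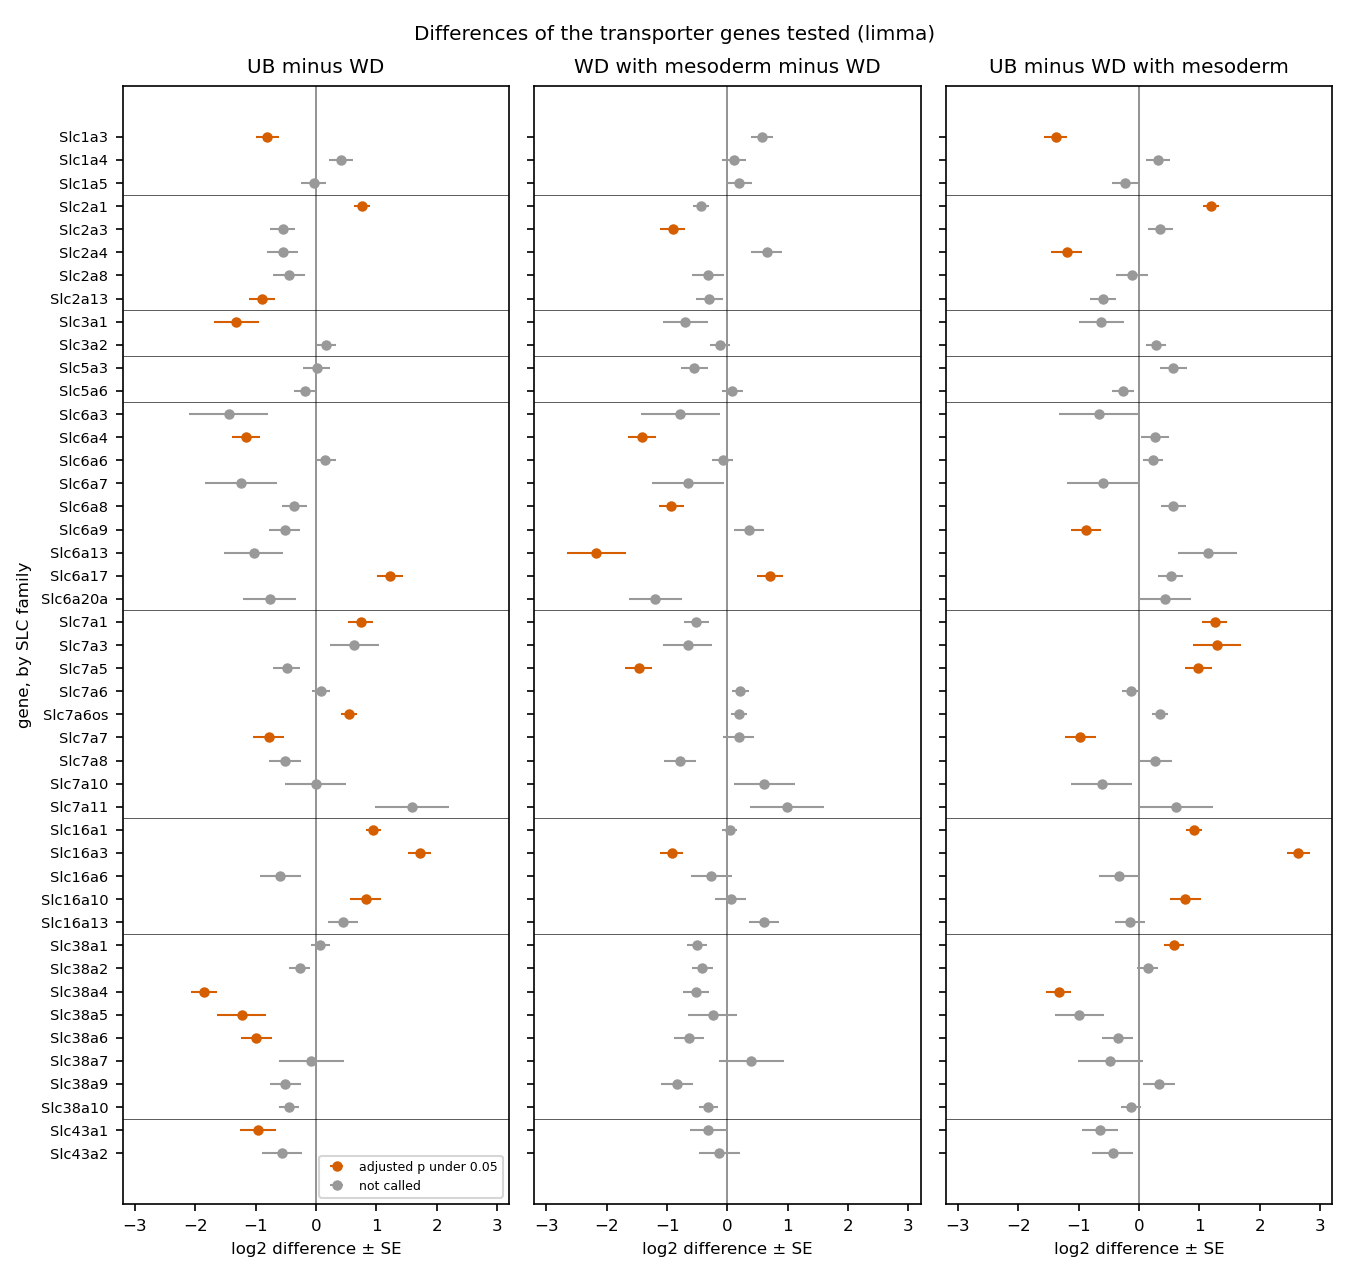
Points are log2 differences with SE for the 45 genes in the 3 comparisons, with genes at an adjusted p under 0.05 in orange and the rest in grey. The largest difference called is Slc16a3 in the UB against WD with mesoderm, at 2.64 ± 0.19.

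In the SLC16 family 3 of 5 genes tested rose in the UB against the WD and 0 fell, with a family median of 0.82. Of all genes tested 13.3% rose and 19.6% fell in that comparison, with a median of -0.075. Slc16a3, the proton-coupled carrier with which glycolytic cells export lactate, had signals of 9916, 9527 and 8309.7 in the UB, 2302, 2940.3 and 3124 in the WD and 1124, 1515 and 1751 in WD with mesoderm. The 3 tissues did not overlap, with the UB far above and WD with mesoderm lowest. The differences were 1.72 ± 0.19 (adjusted p = 5.54e-05) against the WD and 2.64 ± 0.19 (adjusted p = 8.30e-07) against WD with mesoderm, and WD with mesoderm differed from the WD by -0.92 ± 0.19 (adjusted p = 0.00786). Slc16a1, which carries lactate, pyruvate and ketone bodies in many tissues, read 9799, 9255 and 9646 in the UB, 5204, 4871 and 4732 in the WD and 4672, 5057 and 5466 in WD with mesoderm. The UB lay above both other tissues, which overlapped. Its differences were 0.95 ± 0.13 (adjusted p = 2.23e-04) and 0.91 ± 0.13 (adjusted p = 1.75e-04) for the UB against the WD and against WD with mesoderm, and 0.035 ± 0.13 (adjusted p = 0.887) between those.

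Slc16a10, a carrier of aromatic amino acids despite its family, had 1037, 1036 and 1148 units in the UB, 499, 764 and 527 in the WD and 548, 641 and 644 in WD with mesoderm. It rose by 0.82 ± 0.26 and 0.77 ± 0.26 in the UB (adjusted p = 0.031 and 0.0449). Against the WD this call was lost without UB replicate 1 (adjusted p = 0.0919), UB replicate 2 (0.0727), UB replicate 3 (0.102), WD replicate 1 (0.0887) or WD replicate 3 (0.0681), and over the alternatives its adjusted p was 0.00361 to 0.465. Against WD with mesoderm it was lost without UB replicate 1 (adjusted p = 0.124), UB replicate 2 (0.107), UB replicate 3 (0.134), WD with mesoderm replicate 1 (0.109), WD with mesoderm replicate 2 (0.0819) or WD with mesoderm replicate 3 (0.0642) (range 0.00852 to 0.31 over the alternatives). Slc16a13 and Slc16a6 were called in no comparison by their brightest probe sets. Slc16a13 read 1259, 1183 and 1476 in the UB, all above the 1116, 708 and 1038 of the WD, with 0.45 ± 0.25, and Slc16a6 differed by -0.59 ± 0.34. Their dimmer probe sets gave other calls: that of Slc16a13 was lower in the UB at -0.75 against the WD and -0.80 against WD with mesoderm (adjusted p = 0.0311 and 0.0249), opposite in sign to the brighter one against the WD, and that of Slc16a6 was lower with mesoderm at -1.30 against the WD (adjusted p = 0.022).

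The partners of lactate carriers went opposite ways. Emb, the embigin glycoprotein that chaperones monocarboxylate carriers, read 11091, 10022 and 10334 in the UB, 4296, 4989 and 4154 in the WD and 2485, 4106 and 3986 in WD with mesoderm. It rose in the UB by 1.22 ± 0.19 (adjusted p = 5.86e-04) and 1.59 ± 0.19 (adjusted p = 4.61e-05). Bsg, or basigin, the usual chaperone of Slc16a1 and Slc16a3, went down instead, from 37788, 52479 and 49441 in the WD and 37189.6, 52189.5 and 40577 in WD with mesoderm to 31257, 25011 and 34852 in the UB, with differences of -0.62 ± 0.17 (adjusted p = 0.0197) and -0.51 ± 0.17 (adjusted p = 0.0486). The UB arrays lay below all others for Bsg and above all others for Emb. The basigin call against the WD was lost without UB replicate 1 (adjusted p = 0.0513), UB replicate 2 (0.0784), WD replicate 2 (0.0731) or WD replicate 3 (0.0561) and with median centring (range 0.0086 to 0.617 over the alternatives). That against WD with mesoderm was lost without UB replicate 1 (adjusted p = 0.103), UB replicate 2 (0.191), WD replicate 2 (0.0506), WD replicate 3 (0.0566), WD with mesoderm replicate 2 (0.189) or WD with mesoderm replicate 3 (0.0671) (range 0.0159 to 0.649 over the alternatives). The subunits of lactate dehydrogenase split as well. Ldha, whose product favours lactate, read 82452, 87784 and 75483 in the UB and 47689, 57628 and 61314 in the WD (0.57 ± 0.15, adjusted p = 0.0141), a call lost without UB replicate 1 (adjusted p = 0.0514), UB replicate 2 (0.051) or WD replicate 1 (0.0569) (range 0.00124 to 0.261 over the alternatives). Ldhb, the form favoured where lactate is consumed, instead read 4315, 5345 and 4761 in the UB, 12686, 11039 and 11038 in the WD and 15554, 18908 and 17194 in WD with mesoderm. Ldhb was lower in the UB, with a difference of -1.26 ± 0.14 (adjusted p = 4.00e-05) and -1.83 ± 0.14 (adjusted p = 9.36e-07), without overlap.

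**Figure D3:**
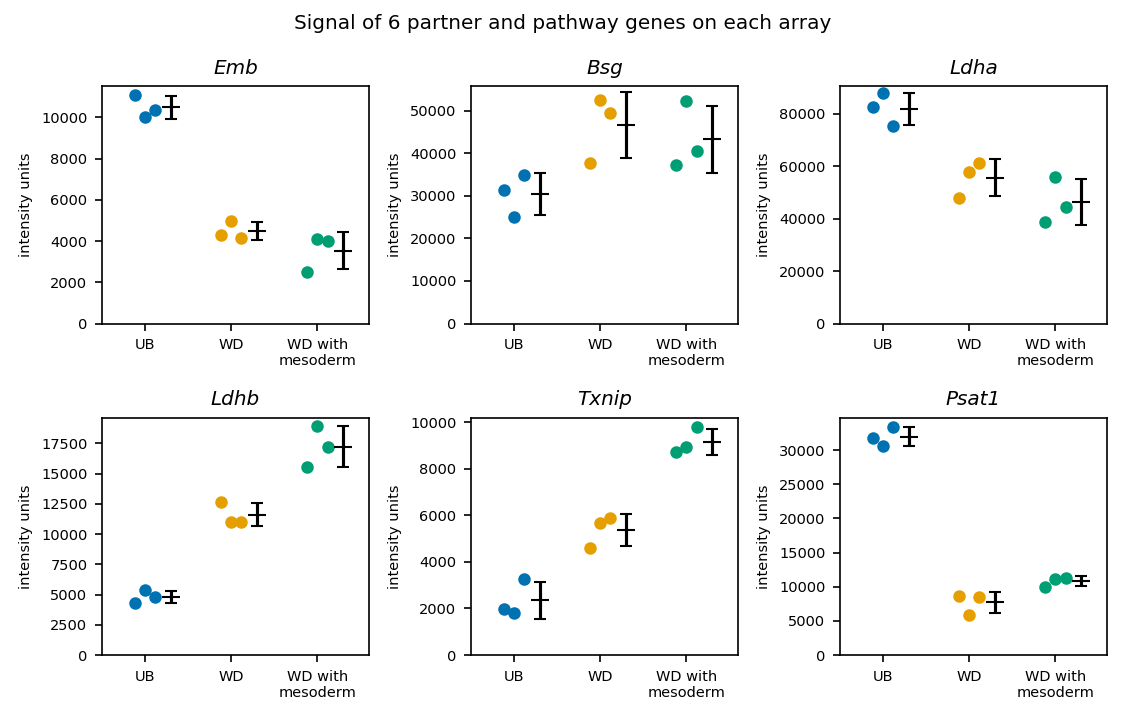
Intensity on each array for 6 partner and pathway genes, axes from 0, with points for the arrays of UB, WD and WD with mesoderm and bars for mean and standard deviation (n = 3). Emb, Ldha and Psat1 sit highest in the UB, and Bsg, Ldhb and Txnip lowest.

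Among 5 SLC2 carriers tested Slc2a1 was called higher in the UB. Slc2a1, the glucose carrier of most growing cells and of red cells, read 13452, 14438 and 15649 in the UB, 7272, 9345 and 9176 in the WD and 6153, 6318 and 6497 in WD with mesoderm. The tissues did not overlap. It was higher in the UB by 0.76 ± 0.13 (adjusted p = 0.0016) against the WD and 1.19 ± 0.13 (adjusted p = 3.38e-05) against WD with mesoderm, and WD with mesoderm differed from the WD by -0.43 ± 0.13 (adjusted p = 0.0557). That last difference was called without WD replicate 1 (-0.55 ± 0.13, adjusted p = 0.0276) and with quantile normalization (-0.47 ± 0.14, adjusted p = 0.0383), the stricter filter (adjusted p = 0.0452) and the mean of probe sets (0.0399) (range 0.0276 to 0.342 over the alternatives). Red cell markers, 9 of 12 listed, ran the other way and their part was not tested. They summed to 9685 to 32562 units in the UB against 183862 to 261958 in the WD and 162020 to 236064 in WD with mesoderm. Slc2a3, the high-affinity glucose carrier, was lower with mesoderm than in the WD. It read 3883, 4525 and 3141 in the UB, 4318, 7031 and 5817 in the WD and 2528, 3057 and 3384 in WD with mesoderm, a difference of -0.91 ± 0.21 (adjusted p = 0.0127) between the ducts and -0.55 ± 0.21 (adjusted p = 0.0611) between UB and WD. Without WD replicate 1 the latter was called too (-0.74 ± 0.21, adjusted p = 0.025) (range 0.025 to 0.986 over the alternatives). The call between the ducts was lost without WD replicate 2 (adjusted p = 0.0553) (range 0.00714 to 0.596 over the alternatives), and a dimmer probe set of the gene differed by 0.39 and was not called.

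Slc2a4, the carrier that insulin moves to the surface of muscle and fat cells, was lowest in the UB. Its signals were 1009, 1030.05 and 775 in the UB, 1027, 1396 and 1836 in the WD and 1686, 2438 and 2577 in WD with mesoderm. The UB fell below WD with mesoderm on every array (-1.20 ± 0.26, adjusted p = 0.0041) but overlapped the WD (-0.55 ± 0.26, adjusted p = 0.123). Both its probe sets were called lower against WD with mesoderm. Smooth muscle markers, 5 of 6 listed, summed to 2892 to 3274 units in the UB, 7487 to 8245 in the WD and 22164 to 27845 in WD with mesoderm. Their UB and WD sums did not overlap, while the Slc2a4 signals above did. Endothelial markers, 13 of 14 listed, summed to 3396 to 4535, 5676 to 7069 and 48339 to 48840 units in the same order. Mesenchyme markers, given above, also stood lowest in the UB. The part of these markers in the result was not tested. Slc2a13, which couples myo-inositol to protons, read 905, 871 and 759.8 in the UB, 1459, 1998 and 1435 in the WD and 1209, 1195 and 1526 in WD with mesoderm, and fell in the UB against the WD, with a difference of -0.90 ± 0.22 (adjusted p = 0.00941), a call that quantile normalization ended at -0.61 ± 0.25 (adjusted p = 0.0925). The intracellular carrier Slc2a8, the sodium-coupled myo-inositol carrier Slc5a3 and Slc5a6, which brings in biotin and pantothenate, were called in no comparison. For Slc5a3 the signals were 2702, 3398 and 3314 in the UB, 3165, 2838 and 3273 in the WD and 3086, 1797 and 1653 in WD with mesoderm, and for Slc5a6 they were 1948, 2189 and 2474, 2880.4, 2262 and 2386 and 2379, 2542 and 3067, overlapping throughout.

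Genes around glucose uptake were read from a list of glycolysis and lactate enzymes and from 8 tested carrier partners. Of 18 glycolysis genes tested 8 rose and 1 fell in the UB against the WD (median 0.37), and 10 rose and 1 fell against WD with mesoderm (median 0.68), with Ldhb as the 1 that fell both times. Of all genes tested 13.3% rose and 19.6% fell against the WD, and 13.6% and 16.6% against WD with mesoderm. Egln3, an oxygen sensor that is itself induced by low oxygen, rose by 1.76 ± 0.27 (adjusted p = 5.52e-04) against the WD and 1.82 ± 0.27 (adjusted p = 2.74e-04) against WD with mesoderm. Tpi1 and Pgk1, enzymes of glycolysis, rose by 0.69 ± 0.13 and 0.75 ± 0.16 against the WD. Between WD with mesoderm and the WD 1 of the 18 was higher and 2 lower, among them Pfkfb3, which makes an activator of glycolysis, at -1.32 ± 0.16 (adjusted p = 2.37e-04). Txnip, an arrestin-like protein that restrains glucose uptake, read 1996, 1802 and 3266 in the UB, 4587, 5685 and 5864 in the WD and 8712, 8950.1 and 9787 in WD with mesoderm. It was lower in the UB, with a difference of -1.22 ± 0.21 (adjusted p = 0.00118) and -1.98 ± 0.21 (adjusted p = 1.60e-05), and its relative Arrdc4 was lower at -0.89 ± 0.27 and -1.07 ± 0.27. Txnip was higher with mesoderm than in the WD by 0.77 ± 0.21 (adjusted p = 0.0294), a call lost without WD replicate 1 (adjusted p = 0.102), WD replicate 2 (0.0627), WD with mesoderm replicate 1 (0.0504), WD with mesoderm replicate 2 (0.0708) or WD with mesoderm replicate 3 (0.0891) (range 0.0071 to 0.555 over the alternatives). The Arrdc4 call against the WD was lost without UB replicate 1 (adjusted p = 0.119), UB replicate 3 (0.0829), WD replicate 2 (0.0819) or WD replicate 3 (0.0703) (range 0.0156 to 0.336 over the alternatives). That against WD with mesoderm was lost without UB replicate 1 (adjusted p = 0.0658) (range 0.00556 to 0.108 over the alternatives). These lists were written with earlier results of the same arrays known.

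The promoters of Slc2a1 and Slc16a3, which both rose in the UB, are shown because they differ in the core letters that hypoxia-inducible factors are known to bind; they were chosen with the values known. Each line is the 250 bases before the RefSeq start in GRCr8, with capitals for ACGTG or GCGTG on either strand, so that GCGTG on the other strand reads CACGC.
Slc2a1, chr5:138002272-138002521, plus strand: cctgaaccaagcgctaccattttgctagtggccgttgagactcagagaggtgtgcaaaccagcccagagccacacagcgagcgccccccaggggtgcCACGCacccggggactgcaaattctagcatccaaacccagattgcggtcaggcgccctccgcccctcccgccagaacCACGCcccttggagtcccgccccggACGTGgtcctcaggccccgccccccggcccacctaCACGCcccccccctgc
Slc16a3, chr10:106712078-106712327, plus strand: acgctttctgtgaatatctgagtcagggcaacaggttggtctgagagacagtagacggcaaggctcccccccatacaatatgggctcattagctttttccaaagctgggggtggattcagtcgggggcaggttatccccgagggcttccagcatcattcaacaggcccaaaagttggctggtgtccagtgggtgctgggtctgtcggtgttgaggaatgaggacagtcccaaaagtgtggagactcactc
The Slc2a1 window held 4 such matches, 1 of ACGTG and 3 of GCGTG, and the Slc16a3 window 0. Of 27457 RefSeq promoters, taking the first listed for each gene, 37.9% held at least 1. A promoter was listed for 61 members, of which 28 held at least 1, and 18 of the 36 that were also tested did. Both cores contain the letters CG, and the windows differed in composition. The median window held 52.0% G or C and 6 CG pairs over all promoters, 57.2% and 10 over members and 60.4% and 14.5 over tested members. The Slc2a1 window held 68.4% and 17, and the Slc16a3 window 54.0% and 5. A CACGTG palindrome counts as 2 matches of ACGTG, 1 on each strand. The match is a description of letters in this window only, and these arrays hold no measure of binding.

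Among carriers of cationic amino acids Slc7a1 rose in the UB. Slc7a1, the widely expressed arginine and lysine carrier, read 5693, 7318 and 4003 in the UB, 3375, 2876 and 3623 in the WD and 2073, 2305 and 2482 in WD with mesoderm. The tissues did not overlap, and the UB arrays spread most. It was higher by 0.74 ± 0.21 (adjusted p = 0.0195) against the WD and 1.25 ± 0.21 (adjusted p = 7.14e-04) against WD with mesoderm, while the ducts differed by -0.51 ± 0.21 (adjusted p = 0.129). Of its 2 tested probe sets both were called against WD with mesoderm and 1 against the WD. The latter call was lost without UB replicate 1 (adjusted p = 0.0691), UB replicate 2 (0.0819) or WD replicate 2 (0.0663) (range 0.0023 to 0.483 over the alternatives). Slc7a3, a relative known from brain and embryo, read 595, 557 and 716 in the UB, 246, 318 and 695 in the WD and 218, 257 and 205 in WD with mesoderm. It was above WD with mesoderm by 1.29 ± 0.40 (adjusted p = 0.0337), a call lost without UB replicate 1 (adjusted p = 0.0998), UB replicate 2 (0.0766), UB replicate 3 (0.118), WD with mesoderm replicate 1 (0.0669), WD with mesoderm replicate 2 (0.0581) or WD with mesoderm replicate 3 (0.067) (range 0.00576 to 0.172 over the alternatives), and overlapped the WD.

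The 250 bases before the start of Slc7a1 are shown because they hold TGATGNAA, letters of the element to which ATF4 binds in the amino acid response, here in capitals.
Slc7a1, chr12:11664238-11664487, plus strand in GRCr8: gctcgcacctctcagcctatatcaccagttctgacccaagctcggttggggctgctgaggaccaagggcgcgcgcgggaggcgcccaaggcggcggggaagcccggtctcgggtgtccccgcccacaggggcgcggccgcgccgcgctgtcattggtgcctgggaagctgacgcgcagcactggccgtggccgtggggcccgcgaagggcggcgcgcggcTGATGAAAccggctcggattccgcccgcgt
The first base of the match lies 30 bases before the RefSeq start. On either strand TGATGNAA stood in 3.27% of all promoters and in 3 of the 36 tested members that have one, namely Slc1a4, Slc38a1 and Slc7a1. By their brightest probe sets Slc1a4 and Slc38a1 were not called for UB minus WD, at 0.42 (adjusted p = 0.131) and 0.075 (adjusted p = 0.754). The window of Slc7a1 was chosen with the values known, and these arrays hold no measure of binding.

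Among exchanger subunits the common heavy chain was not called in any comparison, whereas some light chains were. Slc3a2, the heavy chain that carries most of these light chains to the surface, read 7473, 7031 and 7442 in the UB, 5639, 6048 and 8079.8 in the WD and 5338, 7156 and 5619.8 in WD with mesoderm. The tissues overlapped, with 0.17 ± 0.17 (adjusted p = 0.47) for UB minus WD, -0.12 ± 0.17 (adjusted p = 0.687) for WD with mesoderm minus WD and 0.29 ± 0.17 (adjusted p = 0.246) for UB minus WD with mesoderm. With median centring the UB was called higher, at 0.63 ± 0.22 (adjusted p = 0.0356) against the WD and 0.65 ± 0.22 (adjusted p = 0.034) against WD with mesoderm, and the adjusted p was 0.0356 to 0.902 and 0.034 to 0.491 over the alternatives. Slc7a5, the light chain for leucine and other large neutral amino acids, read 2207, 2864 and 2604 in the UB, 3462, 3569.7 and 3729 in the WD and 859.6, 1681 and 1388 in WD with mesoderm. Its 3 ranges did not overlap. It fell with mesoderm by -1.47 ± 0.23 (adjusted p = 0.00121) against the WD and was higher in the UB than in WD with mesoderm by 0.98 ± 0.23 (adjusted p = 0.00675), while UB minus WD was -0.49 ± 0.23 (adjusted p = 0.124). That last difference was called without WD with mesoderm replicate 1 (-0.49 ± 0.17, adjusted p = 0.0449) and in a fit of UB and WD alone (-0.49 ± 0.16, adjusted p = 0.0426) (range 0.0426 to 0.95 over the alternatives).

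Slc7a8, another light chain for neutral amino acids, read 905, 1007 and 1219.5 in the UB, 1215, 2168 and 1281 in the WD and 934, 956 and 683 in WD with mesoderm, and was called in no comparison (-0.79 ± 0.27, adjusted p = 0.0731, between the ducts). Slc7a11, the cystine and glutamate exchanger that supplies glutathione synthesis, read 681, 589.5 and 622 in the UB, 327, 397 and 21.8 in the WD and 328, 568 and 331 in WD with mesoderm. WD replicate 3 stood far below the others, under the pseudocount of 46. UB minus WD was 1.59 ± 0.61 (adjusted p = 0.068). Without WD replicate 3 it was 0.73 ± 0.36 (adjusted p = 0.154). It was called without WD replicate 2 (2.09 ± 0.64, adjusted p = 0.04) and with quantile normalization (2.08 ± 0.62, adjusted p = 0.0297), median centring (2.06 ± 0.59, adjusted p = 0.013) and the beta-actin ratio as a covariate (2.69 ± 0.72, adjusted p = 0.0289) (range 0.013 to 0.406 over the alternatives). Slc7a7, the light chain that releases cationic amino acids, was lowest in the UB, at 477, 399 and 465 against 683, 806 and 932 in the WD and 863, 1045 and 854 in WD with mesoderm. Its differences were -0.78 ± 0.26 (adjusted p = 0.0367) and -0.97 ± 0.26 (adjusted p = 0.0144). The call against the WD was lost without UB replicate 1 (adjusted p = 0.086), UB replicate 2 (0.103), UB replicate 3 (0.0773), WD replicate 2 (0.073) or WD replicate 3 (0.0951) (range 0.0208 to 0.516 over the alternatives), and with quantile normalization (-0.28 ± 0.27, adjusted p = 0.466). Against WD with mesoderm the call was lost without UB replicate 2 (adjusted p = 0.0557) or WD with mesoderm replicate 2 (0.0591) (range 0.00646 to 0.178 over the alternatives). Macrophages are known to express Slc7a7, and macrophage markers, 11 of 12 listed, summed to 2008 to 3049 units in the UB, 4828 to 7408 in the WD and 7330 to 10922 in WD with mesoderm. Of these 11, 0 were called higher and 5 lower for UB minus WD, and 0 and 9 for UB minus WD with mesoderm. The shares of all genes were 13.3% and 19.6%, and 13.6% and 16.6%. Cd68 ran the other way, with means of 739, 623 and 466 in the order of the sums, and Aif1 was lowest with mesoderm, at 322, 635 and 219. The part of these markers in the result was not tested. Slc7a6 and Slc7a10 were called in no comparison, and Slc7a6os, next to Slc7a6 with 0 protein-coding genes between them, rose in the UB by 0.54 ± 0.13 (adjusted p = 0.00971).

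Slc3a1, the heavy chain of the cystine carrier of the renal brush border, fell in the UB. It read 1574, 1854 and 568 in the UB, 3113, 2845 and 3184 in the WD and 1314, 2679.8 and 1829 in WD with mesoderm, with UB replicate 3 far below its fellows. UB minus WD was -1.32 ± 0.37 (adjusted p = 0.0199), and -0.82 without UB replicate 3, a call lost without UB replicate 3 (adjusted p = 0.0518) or WD replicate 1 (0.053) (range 0.00996 to 0.37 over the alternatives). Slc7a9, the light chain that pairs with it, did not pass the filter. Of 8 genes listed as tubule or podocyte markers 3 were tested, namely Lrp2, Podxl and Wt1. Podxl and Wt1 are not particular to tubules, and they held most of the summed signal in the WD and in WD with mesoderm. The 3 genes summed to 3748 to 4742 units in the UB, 36992 to 42631 in the WD and 47867 to 60462 in WD with mesoderm. Between the ducts Lrp2 and Wt1 ran opposite ways, with means of 7108 and 17267 in the WD and 1807 and 38675 in WD with mesoderm. The part of these markers in the Slc3a1 difference was not tested. Slc43a1, a carrier of large neutral amino acids, read 1957, 827 and 2105 in the UB, 2719, 3635 and 2674 in the WD and 2419, 2643 and 2129 in WD with mesoderm, and fell, with a difference of -0.96 ± 0.30 (adjusted p = 0.0306), or -0.54 without UB replicate 2, a call lost without UB replicate 2 (adjusted p = 0.0802), WD replicate 1 (0.0547) or WD replicate 2 (0.106) (range 0.0171 to 0.545 over the alternatives). Its relative Slc43a2 was called in no comparison.

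Sodium-coupled neutral carriers of the SLC38 family fell in the UB against the WD where their brightest probe sets were called. Of 8 tested 0 rose and 3 fell, and 0 and 2 with quantile normalization, 0 and 1 with median centring. Of all genes tested 13.3% rose and 19.6% fell in that comparison. Slc38a4, a carrier of neutral and cationic amino acids known from liver and placenta, read 918, 674 and 1077 in the UB, 3098, 2865 and 3983 in the WD and 2442, 2328 and 2059 in WD with mesoderm. The UB was far below both, with -1.85 ± 0.21 (adjusted p = 6.69e-05) and -1.33 ± 0.21 (adjusted p = 5.17e-04). Both were called in every alternative tried. Slc38a1 and Slc38a2, the glutamine carriers of growing cells, are its neighbours in the GRCr8 gene table, with 0 protein-coding genes between Slc38a1 and Slc38a2 and 0 between Slc38a2 and Slc38a4, yet their values ran differently.

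Slc38a2 read 25772, 30433 and 25864 in the UB, 43822, 25159.6 and 32384 in the WD and 23043, 27262 and 23894 in WD with mesoderm, which overlapped (-0.27 ± 0.18, adjusted p = 0.263, for UB minus WD). Slc38a1 read 14362, 15408 and 11774 in the UB, 12352, 12495 and 14442 in the WD and 7713, 11312 and 8881 in WD with mesoderm. WD with mesoderm minus WD was -0.51 ± 0.16 (adjusted p = 0.0612), and -0.55 ± 0.16 (adjusted p = 0.037) with quantile normalization. It was higher in the UB than in WD with mesoderm by 0.58 ± 0.16 (adjusted p = 0.0194), lost without UB replicate 1 (adjusted p = 0.0766), UB replicate 2 (0.0829) or WD with mesoderm replicate 1 (0.0752) (range 0.00541 to 0.129 over the alternatives). UB minus WD was 0.075 ± 0.16 (adjusted p = 0.754) for its brightest probe set, while the dimmest of its 3 was called at 1.99 (adjusted p = 0.0117). Slc38a5, which carries glutamine and glycine, read 179, 161 and 237 in the UB, 439, 397 and 749 in the WD and 608, 313 and 390.5 in WD with mesoderm. It fell in the UB against the WD, with a difference of -1.23 ± 0.40 (adjusted p = 0.0379), lost without UB replicate 1 (adjusted p = 0.105), UB replicate 2 (0.0983), UB replicate 3 (0.0625), WD replicate 1 (0.0611) or WD replicate 3 (0.12) (range 0.024 to 0.482 over the alternatives), and with quantile normalization (-0.55 ± 0.38, adjusted p = 0.315). Slc38a6 read 667, 889 and 716, 1705, 1650.3 and 1287 and 1342, 836 and 815 in the same order and fell, with a difference of -0.99 ± 0.25 (adjusted p = 0.0129), lost without UB replicate 1 (adjusted p = 0.0573) (range 0.0056 to 0.513 over the alternatives). Slc38a7, Slc38a9 and Slc38a10 were called in no comparison. Slc38a9, the lysosomal arginine sensor, differed by -0.83 ± 0.26 (adjusted p = 0.0608) between WD with mesoderm and WD and was called without WD replicate 3 (-1.003 ± 0.28, adjusted p = 0.037) and with the mean of probe sets (-0.83 ± 0.25, adjusted p = 0.0333) (range 0.0333 to 0.506 over the alternatives). Slc38a10 differed by -0.45 ± 0.16 (adjusted p = 0.0545) between UB and WD and was called without WD replicate 3 (-0.57 ± 0.17, adjusted p = 0.0269), with quantile normalization (adjusted p = 0.0463), with the stricter filter (0.0482) and with the mean of probe sets (0.0389) (range 0.0269 to 0.973 over the alternatives).

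Among 3 SLC1 carriers tested Slc1a3 was called, and the neutral exchangers were not. Slc1a3, the glutamate and aspartate carrier known from glia, read 1228, 1277 and 1059.7 in the UB, 2096, 2464 and 1802 in the WD and 2885, 3671 and 2965 in WD with mesoderm. For this probe set, its brightest, the 3 tissues were fully separated, in that rising order. The UB was lower, with a difference of -0.80 ± 0.19 (adjusted p = 0.00785) and -1.38 ± 0.19 (adjusted p = 1.51e-04), and the ducts differed by 0.57 ± 0.19 (adjusted p = 0.0663). Of its 3 probe sets 2 were called lower against the WD and 1 against WD with mesoderm. With median centring UB minus WD was -0.34 ± 0.25 (adjusted p = 0.285) (range 0.00648 to 0.336 over the alternatives). The ducts stood in the opposite order for another of its probe sets, at 1636, 1422 and 1240 in the WD and 1133, 1140.5 and 1039.5 in WD with mesoderm, a difference of -0.35 that was not called (adjusted p = 0.358). Summed mesenchyme markers, given above, also stood lowest in the UB, and their part in the result was not tested. Slc1a5, the glutamine exchanger of dividing cells, read 2324, 2450.2 and 2777 in the UB, 2247, 2123 and 3604 in the WD and 2731, 3503 and 2669.7 in WD with mesoderm, and Slc1a4, which exchanges alanine and serine, read 1774, 1433 and 1602, 1194, 1243 and 1112 and 1503, 1259.8 and 1092. UB minus WD was -0.04 ± 0.21 (adjusted p = 0.904) for Slc1a5 and 0.42 ± 0.20 (adjusted p = 0.131) for Slc1a4. For Slc1a4 the UB arrays all lay above the WD arrays, and it was called with quantile normalization, at 0.64 ± 0.20 (adjusted p = 0.0336), and with median centring, at 0.88 ± 0.23 (adjusted p = 0.00742) (range 0.00742 to 0.38 over the alternatives).

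**Figure D4:**
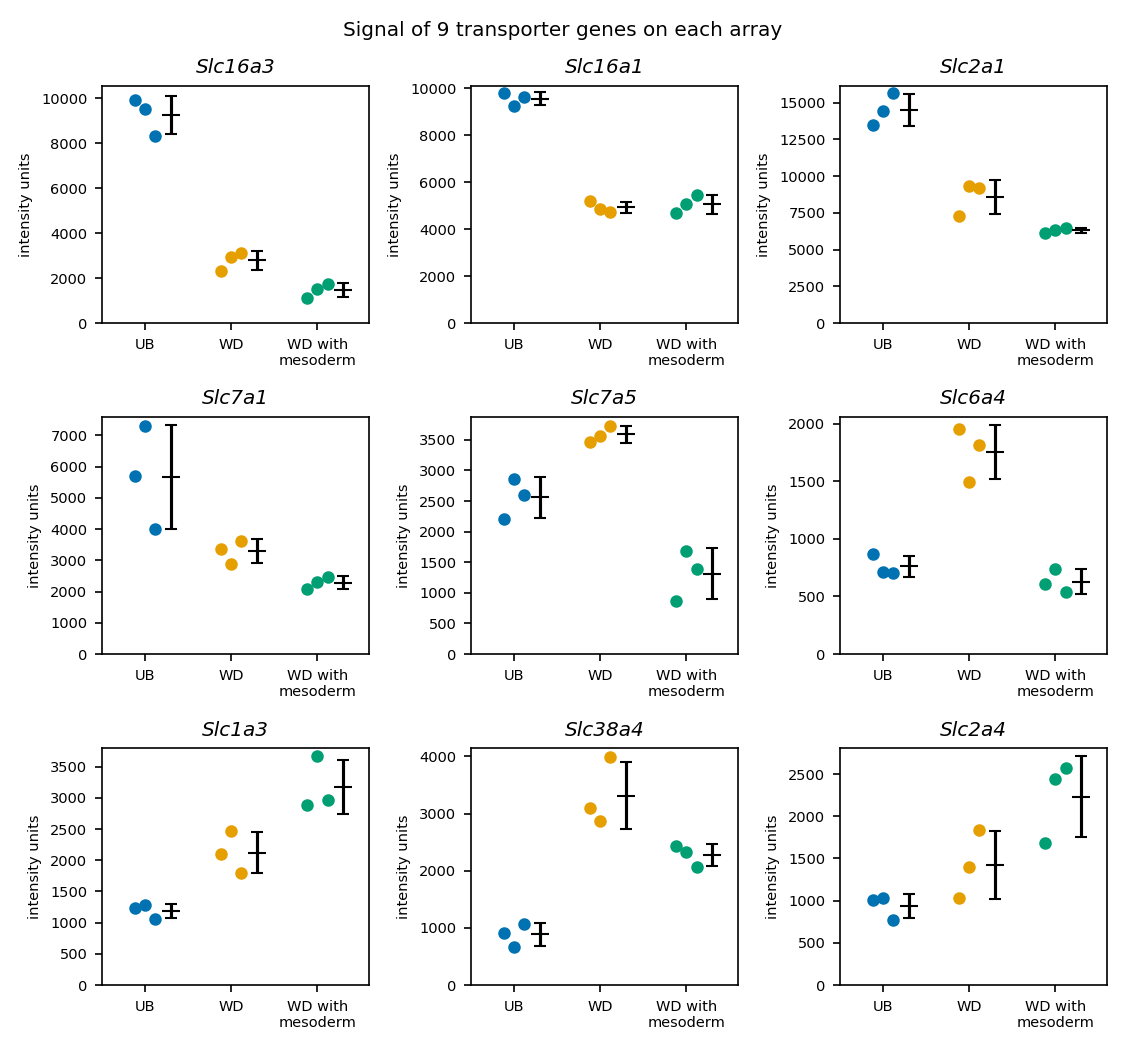
Intensity on each array for 9 carriers, axes from 0, with points for the arrays of UB, WD and WD with mesoderm and bars for mean and standard deviation (n = 3). Slc16a3, Slc16a1, Slc2a1 and Slc7a1 sit highest in the UB, Slc7a5 and Slc6a4 highest in the WD, and Slc1a3 and Slc38a4 lowest in the UB; Slc2a4 is lowest in the UB but overlaps the WD.

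The SLC6 family, with 9 of the 45 carriers tested, held 4 of the 7 calls between WD with mesoderm and the WD. Of these 9 genes 1 was higher and 3 lower with mesoderm, and 0 and 3 with median centring. Of all genes tested 6.49% were higher and 8.23% lower in that comparison. Slc6a4, the serotonin carrier, was highest in the WD on these arrays, with 1951, 1497 and 1812 in the WD, 611, 743 and 536 in WD with mesoderm and 869.8, 709 and 706 in the UB. The WD was above both others, with a difference of -1.42 ± 0.23 (adjusted p = 0.0018) for WD with mesoderm minus WD and -1.15 ± 0.23 (adjusted p = 0.00351) for UB minus WD, and UB and WD with mesoderm overlapped. Slc6a13, a carrier of GABA and taurine, read 503, 507 and 823 in the WD, 52.3, 66.7 and 215 in WD with mesoderm and 245, 282 and 278 in the UB. It fell with mesoderm, with a difference of -2.17 ± 0.49 (adjusted p = 0.0118), the largest fall among the 45 carriers tested in that comparison. Its signals of 52.3 and 66.7 in WD with mesoderm lay near the pseudocount, so the size of this fall depends on the pseudocount. Slc6a8, the creatine carrier, read 4567, 3540.5 and 4534 in the WD, 3033, 1922 and 1748 in WD with mesoderm and 3397, 3236 and 3111 in the UB. It fell with mesoderm, with a difference of -0.93 ± 0.21 (adjusted p = 0.0112), and a dimmer probe set of it differed by -0.24 and was not called. Of the 11 duct epithelial markers tested 0 rose and 10 fell in the same comparison (median -1.66). Their part in these falls, and in those of Slc7a5, Slc16a3 and Slc2a3 with mesoderm given above, was not tested.

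Slc6a17, a carrier of neutral amino acids known from synaptic vesicles, was the SLC6 gene that rose in that comparison. It read 2993, 4296 and 4114 in the UB, 1867, 1468 and 1426 in the WD and 2552, 2105 and 3249 in WD with mesoderm, with the WD below both. UB minus WD was 1.23 ± 0.21 (adjusted p = 0.00133) and WD with mesoderm minus WD 0.70 ± 0.21 (adjusted p = 0.0485). The second call held in 6 of 21 alternatives and was lost without UB replicate 1 (adjusted p = 0.0554), UB replicate 2 (0.0631), UB replicate 3 (0.0606), WD replicate 2 (0.129), WD replicate 3 (0.104), WD with mesoderm replicate 1 (0.0825) or WD with mesoderm replicate 3 (0.155) (range 0.0325 to 0.155 over the alternatives). Slc6a9, the glycine carrier, read 1002, 1274 and 985 in the UB, 1455, 1461 and 1809.8 in the WD and 2149, 2756 and 1382 in WD with mesoderm. It was lower in the UB than in WD with mesoderm, with a difference of -0.87 ± 0.25 (adjusted p = 0.0228), lost without UB replicate 1 (adjusted p = 0.0844), UB replicate 3 (0.0705), WD with mesoderm replicate 1 (0.0637) or WD with mesoderm replicate 2 (0.105) (range 0.00421 to 0.569 over the alternatives), and by -0.70 ± 0.25 (adjusted p = 0.0655) with quantile normalization. Slc6a9 is known from red cell precursors, whose summed markers also stood lowest in the UB; their part was not tested. Slc6a6, the taurine carrier, read 7337, 6736 and 6538 in the UB, 6477, 7376 and 4864 in the WD and 6111, 5071 and 6336 in WD with mesoderm and was called in no comparison. Neither were the proline carriers Slc6a7 and Slc6a20a nor the dopamine carrier Slc6a3, whose arrays spread widely, from 96.9 to 792.8 units for Slc6a3.

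Part of the genes that serve amino acid supply inside the cell rose in the UB. Of 17 genes of the amino acid response and of serine and proline synthesis that were tested, 8 rose and 0 fell against the WD (median 0.52), and 11 rose and 1 fell against WD with mesoderm (median 0.71). Over all genes tested 13.3% were called higher and 19.6% lower against the WD, and 13.6% and 16.6% against WD with mesoderm. Atf4, the transcription factor of that response, rose by 0.88 ± 0.24 (adjusted p = 0.0158) and 0.89 ± 0.24 (adjusted p = 0.0154), and Atf3, a stress gene that is also among the early genes induced by handling of cells, by 2.45 ± 0.64 (adjusted p = 0.0136) and 3.27 ± 0.64 (adjusted p = 0.00234). The Atf4 calls were lost without UB replicate 1 (adjusted p = 0.0513) against the WD and without UB replicate 1 (adjusted p = 0.0508) against WD with mesoderm, with ranges of 8.80e-04 to 0.38 and 1.47e-04 to 0.181 over the alternatives. Without WD replicate 2 the differences from the WD were smaller, at 0.52 ± 0.12 (adjusted p = 0.0126) for Atf4 and 1.47 ± 0.35 (adjusted p = 0.0145) for Atf3. Both genes were named after their values were seen, and the part of the trypsin digestion cannot be told apart from the tissue. Psat1, an enzyme of serine synthesis, read 31814, 30605 and 33401 in the UB, 8651, 5921 and 8566 in the WD and 9923, 11145 and 11266 in WD with mesoderm. It rose by 2.06 ± 0.15 (adjusted p = 1.83e-06) and 1.56 ± 0.15 (adjusted p = 9.16e-06). Shmt1, which passes carbon from serine to folate, rose by 1.35 ± 0.16 (adjusted p = 9.02e-05) and 1.38 ± 0.16 (adjusted p = 4.25e-05), and its mitochondrial partner Shmt2 by 0.93 ± 0.16 and 0.67 ± 0.16. Mthfd2, a mitochondrial folate enzyme, rose by 1.34 ± 0.26 (adjusted p = 0.00277) against the WD. The gene that fell against WD with mesoderm was Ddit4, an inhibitor of mTORC1 signalling, at -1.06 ± 0.18 (adjusted p = 7.04e-04). Between WD with mesoderm and WD 1 of the 17 was higher, Ddit4 at 1.54 ± 0.18 (adjusted p = 1.97e-04), and 1 lower, Sesn2, a leucine sensor, at -0.72 ± 0.18 (adjusted p = 0.0186), lost without WD replicate 1 (adjusted p = 0.0574) or WD with mesoderm replicate 3 (0.0639) (range 0.00853 to 0.119 over the alternatives).

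Of 11 glutamine and glutathione genes tested 2 rose and 0 fell in the UB against the WD, where 13.3% and 19.6% of all genes did, and 3 rose and 2 fell against WD with mesoderm, where 13.6% and 16.6% did. In the same order of comparisons median centring gave 5 and 0, and 4 and 0, and the spike ratio term 0 and 0, and 0 and 1. Gsr, which regenerates glutathione, rose by 1.10 ± 0.28 (adjusted p = 0.0126) and 1.30 ± 0.28 (adjusted p = 0.00469), and the first call was lost without WD replicate 2 (adjusted p = 0.0528) (range 0.00124 to 0.658 over the alternatives). Of 14 mTORC1 genes tested 3 were higher and 1 lower against the WD, and 4 and 1 against WD with mesoderm, beside the same shares of all genes. Median centring gave 7 and 0, and 5 and 0, and the spike ratio term 0 and 0, and 2 and 1. Deptor, an inhibitor of mTOR, rose by 0.96 ± 0.21 (adjusted p = 0.00529) and 1.99 ± 0.21 (adjusted p = 1.81e-05) and was lower with mesoderm than in the WD, at -1.02 ± 0.21 (adjusted p = 0.00706). Of 8 carrier partners and regulators 1 rose and 4 fell for UB minus WD, 2 rose and 1 fell for WD with mesoderm minus WD, and 1 rose and 4 fell for UB minus WD with mesoderm. The shares of all genes were as above for the UB comparisons and 6.49% and 8.23% between the ducts. In that order median centring gave 1 and 1, 2 and 1, and 1 and 2, and the spike ratio term 0 and 0, 1 and 1, and 1 and 2. Sgk1, a kinase that raises the surface level of several carriers, was higher with mesoderm than in the WD by 2.12 ± 0.29 (adjusted p = 4.99e-04), and Nedd4l, a ubiquitin ligase that Sgk1 restrains, was lower, at -1.04 ± 0.21 (adjusted p = 0.00582). The pattern was not shared by the UB, where Nedd4l was also low but Sgk1 stood near the WD. Nedd4l averaged 2524 units in the UB and 4802 in the WD, and Sgk1 729 and 713. A link between these genes was not tested. For UB minus WD and UB minus WD with mesoderm, the spike ratio term left 2 higher and 0 lower, and 4 and 1, in the amino acid response list, and 1 and 1, and 5 and 1, in the glycolysis list. Of the partners it left 0 and 0, and 1 and 2. Median centring gave 13 and 0, and 15 and 1, in the amino acid response list, 13 and 1, and 12 and 1, in the glycolysis list, and 1 and 1, and 1 and 2, among the partners. The beta-actin ratio as a covariate left 5 higher against the WD in the amino acid response list and 4 higher and 1 lower in the glycolysis list.

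With a term for the class of spike ratio, which for UB against WD rests on replicate 3 of WD with mesoderm alone, the errors grew, and 1 of the 16 carriers called in that comparison kept its call while all 16 kept their sign. The carrier that kept it was Slc38a4, at -1.65 ± 0.39 (adjusted p = 0.0406). Those that rose stood at 1.31 ± 0.33 (adjusted p = 0.0517) for Slc16a3, 0.78 ± 0.22 (adjusted p = 0.0885) for Slc16a1 and 0.71 ± 0.47 (adjusted p = 0.465) for Slc16a10. The other rises were 0.70 ± 0.25 (adjusted p = 0.164) for Slc2a1, 0.56 ± 0.38 (adjusted p = 0.483) for Slc7a1, 0.55 ± 0.24 (adjusted p = 0.257) for Slc7a6os and 0.75 ± 0.36 (adjusted p = 0.3) for Slc6a17. Those that fell stood at -1.23 ± 0.38 (adjusted p = 0.113) for Slc2a13 and -1.28 ± 0.71 (adjusted p = 0.37) for Slc3a1. Further falls were -0.64 ± 0.47 (adjusted p = 0.516) for Slc7a7, -0.72 ± 0.56 (adjusted p = 0.545) for Slc43a1 and -0.85 ± 0.41 (adjusted p = 0.314) for Slc6a4. The rest were -0.67 ± 0.34 (adjusted p = 0.336) for Slc1a3, -1.08 ± 0.74 (adjusted p = 0.482) for Slc38a5 and -0.63 ± 0.45 (adjusted p = 0.513) for Slc38a6. Of the pathway genes Psat1, Shmt1, Ldhb and Egln3 kept their calls against the WD, at 1.96 ± 0.28 (adjusted p = 0.00306), 1.30 ± 0.30 (adjusted p = 0.0357), -1.27 ± 0.25 (adjusted p = 0.0182) and 2.16 ± 0.47 (adjusted p = 0.03). Emb and Txnip did not, at 0.91 ± 0.33 (adjusted p = 0.176) and -1.36 ± 0.38 (adjusted p = 0.0819).

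Between the UB and WD with mesoderm the same term, which there equals a comparison of the UB with replicate 3 of WD with mesoderm alone, left 7 of 13 carriers called. That arm holds 1 array, which is assumed to vary like the arrays of the other groups, so these values lean on that array and are no replicate check. Called were Slc16a3 at 2.37 ± 0.26 (adjusted p = 1.19e-04), Slc2a1 at 1.15 ± 0.20 (adjusted p = 0.00244), Slc16a1 at 0.80 ± 0.18 (adjusted p = 0.0116) and Slc7a1 at 1.13 ± 0.30 (adjusted p = 0.0321). The falls called were Slc1a3 at -1.29 ± 0.27 (adjusted p = 0.00884), Slc38a4 at -1.19 ± 0.30 (adjusted p = 0.026) and Slc2a4 at -1.43 ± 0.36 (adjusted p = 0.0254). The same 7 were called in every alternative that gave a value for them. Not called were Slc7a5 at 0.85 ± 0.33 (adjusted p = 0.139), Slc7a3 at 1.41 ± 0.58 (adjusted p = 0.172) and Slc7a7 at -0.87 ± 0.36 (adjusted p = 0.178). Nor were Slc16a10 at 0.70 ± 0.37 (adjusted p = 0.31), Slc38a1 at 0.63 ± 0.24 (adjusted p = 0.129) and Slc6a9 at -0.34 ± 0.29 (adjusted p = 0.569). Between WD with mesoderm and the WD the term sets replicates 1 and 2 of the former against the WD, and 6 of 7 carriers were called, all but Slc6a17 at 0.54 ± 0.22 (adjusted p = 0.153). In that comparison the beta-actin ratios of the tissues do not overlap, and with that ratio as a covariate 0 of the 7 carriers were called by limma (Slc6a20a, not among them, was, at -2.18 ± 0.55 (adjusted p = 0.0485)). Slc7a5 stood at -1.36 ± 0.35 (adjusted p = 0.0516), Slc6a4 at -1.33 ± 0.36 (adjusted p = 0.0616), and Slc6a8 at -1.04 ± 0.32 (adjusted p = 0.1). The others were Slc16a3 at -0.97 ± 0.30 (adjusted p = 0.101), Slc6a13 at -2.30 ± 0.75 (adjusted p = 0.125), Slc2a3 at -0.92 ± 0.32 (adjusted p = 0.146) and Slc6a17 at 0.93 ± 0.31 (adjusted p = 0.14).

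The 34 carriers below the filter never exceeded 601.8 units on any array, and the highest array of each ran from 47.1 units upward. They included the carriers that recover sugar and amino acids in the adult proximal tubule and gut, Slc5a1, Slc5a2, Slc2a2, Slc2a5, Slc7a9, Slc6a18 and Slc1a1. Of the SLC36 family of lysosomal and epithelial proton-coupled carriers none passed (Slc36a1, Slc36a2 and Slc36a3). The SLC6 carriers Slc6a2, Slc6a5, Slc6a11, Slc6a14, Slc6a15 and Slc6a20b and the SLC1 carriers Slc1a2 and Slc1a6 were also below it. So were Slc2a6, Slc2a9, Slc5a5, Slc5a7, Slc5a11, Slc5a12, Slc7a2, Slc7a4, Slc7a12, Slc7a13, Slc7a14, Slc16a7, Slc16a8, Slc16a9, Slc16a12 and Slc38a3. Without detection calls a weak signal cannot be told from background, so nothing is said of their presence. Slc43a3 was matched to no probe set with a single symbol.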

How the data were processed

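Per the labels' protocols, total RNA was biotin-labelled and read on Affymetrix arrays of a single colour. The authors' deposited table holds 1 linear intensity per probe set and array, made with GCOS per the submitters' processing notes; how probes were summarised is not given in the sources used here. All arrays share a mean of 2501 units once 2% of probe sets are trimmed at each end, so differences are relative to the other genes. Apart from 57 array controls, 20826 probe sets had 1 symbol in the platform annotation, 436 several and 9780 none. Every one of the 79 member genes matched the RefSeq gene table (GRCr8) by Entrez ID.

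limma 3.58.1 in R 4.3.3 fitted log2(intensity + 46) on tissue over all 9 arrays, with a variance trend and 6 residual plus 6.08 prior degrees of freedom, and p-values were Benjamini-Hochberg adjusted over 20330 probe sets. The value 46 is the 10th percentile of intensities, and it understates differences of weak genes. With 3 arrays a tissue the number of arrays limits precision. The code was tested on simulated data. Array values are given for the up to 8 carriers with the largest called rise and fall in each comparison and for 20 fixed genes, and pathway genes were named by smallest p, up to 4 a list and comparison, besides Ldha, Atf3 and Atf4. Members, lists and rules were chosen with earlier results of these data known. Samples were not treated as paired by replicate number.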

Additional observations from a re-analysis of the deposited data

How the results depend on the processing

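Alternatives changed the counts of called carriers more than the directions: all carriers called in a comparison kept their sign in each alternative that gave a value. For UB minus WD (7 higher, 9 lower) median centring gave 13 and 1, quantile normalization 10 and 5, the spike ratio term 0 and 1, the beta-actin ratio 4 lower, a fold of at least 2 gave 2 and 4, and leaving out 1 array gave 5 to 7 higher and 6 to 10 lower. For WD with mesoderm minus WD (1 higher, 6 lower) the higher count was 0 with median centring, no filter, the fit of 2 groups alone, the replicate block, the spike ratio term, arrays within 1 spike ratio class, the beta-actin ratio, the mean of probe sets and a fold of at least 2, and 0 to 1 without 1 array. The lower count was 1 with the beta-actin ratio, 3 at a fold of at least 2 and 6 to 8 without 1 array. For UB minus WD with mesoderm (8 higher, 5 lower) the higher count was 16 with median centring, 4 with the spike ratio term, within its class and at a fold of at least 2, and 5 to 8 without 1 array; the lower count was 3 with quantile normalization, median centring, the spike ratio term, within its class and at a fold of at least 2, and 3 to 5 without 1 array. The cause of these shifts was not tested. Got2 for UB minus WD turned from 0.38 (adjusted p = 0.0383) to -0.35 (adjusted p = 0.226) when its probe sets were averaged.

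Deviations of same-numbered arrays correlated at 0.0682, 0.0927 and 0.277 for UB and WD, 0.0619, -0.0538 and -0.281 for WD with mesoderm and WD, and -0.348, -0.0844 and -0.337 for UB and WD with mesoderm. With 3 arrays a tissue these values cannot show whether same-numbered pools were collected together. With the replicate block 6 carriers were higher and 7 lower, 0 and 6, and 6 and 5 in the 3 comparisons. A comparison within 1 spike ratio class was not possible for UB against WD. Weak probe sets are limited by background, since no detection calls were used.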
